A study of Mus musculus with 6 samples.

Results

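Transcripts of 10 genes of glutathione metabolism and of the oxidative stress factor NRF2 were examined in the villi epithelium of wild-type and double mutant mice: Nfe2l2, Keap1, Slc7a11, Gclc, Gclm, Gpx1, Gpx2, Gpx4, Gsr and Nqo1. They were chosen by name, and each was found by its Ensembl identifier among the 20073 Ensembl genes of the count table. The table holds bulk RNA-seq counts of duodenal villi from 3 wild-type and 3 double mutant mice, 1 library per mouse, with 1 male and 2 females in each group. Double mutant mice carried the Villin-CreERT2 transgene, which is active in the whole intestinal epithelium, with both alleles of Smad4 floxed and 1 allele of Ctnnb1 with a floxed exon 3, so that recombination removes Smad4 and stabilises β-catenin. The mutant mice received 0.05 g/kg tamoxifen intraperitoneally on 4 consecutive days, and the time point was 7 days after induction. Wild-type mice were littermates without injection, so an effect of tamoxifen or of active Cre and an effect of the mutations cannot be told apart. All mice shared a C57BL6-enriched background and a standard chow diet, and their ages were not given in the sources used here. The authors state that replicates were matched for age and sex between groups.

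Glutathione is a small thiol made from glutamate, cysteine and glycine, and it is the main soluble antioxidant of most cells. NRF2, the protein of Nfe2l2, switches on genes of glutathione synthesis and detoxification, while KEAP1 holds NRF2 in the cytoplasm and passes it to the proteasome until oxidants or electrophiles modify KEAP1. Much of this control acts on the NRF2 protein, which RNA-seq does not measure. Glutathione peroxidases spend glutathione to reduce peroxides, and glutathione reductase returns the oxidised form to use with NADPH.

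The targeted gene was read first. Smad4 was at 119.8, 180.1 and 144.5 CPM (read counts relative to library size, which was scaled by the TMM method) in wild-type mice and at 26.05, 36.83 and 32.13 CPM in double mutant mice, a log2 fold change of -2.22 (edgeR quasi-likelihood test with Benjamini-Hochberg adjustment over 13346 genes, adjusted p = 0.000145). Ctnnb1, whose recombined allele still makes a transcript, was at 931.7 ± 53.58 and 841.1 ± 79.67 CPM (SD, n = 3; edgeR adjusted p = 0.359), and its level is no check of the deletion of exon 3. Libraries held 19678507 to 26337318 counts, and 3 counts correspond to 0.125 to 0.163 CPM.

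Cell type markers differed between the groups. The summed level of 14 enterocyte markers was 64500 to 74920 CPM in wild-type and 40000 to 41820 CPM in double mutant mice, with 10 markers lower and 1 higher. The summed level of 10 stem cell markers was 63.9 to 168.4 CPM in wild-type and 345.7 to 442.7 CPM in double mutant mice, with 5 higher and none lower. Of 8 cycling cell markers 7 were higher and none was lower, with sums of 66.9 to 94.01 and 193.6 to 238.2 CPM. Of 8 tuft markers 7 were tested and all 7 were lower, with sums of 123.8 to 181.3 and 14.84 to 16.28 CPM, and 6 of 8 enteroendocrine markers were lower, with sums of 230.3 to 329.5 and 100.6 to 110.1 CPM. Stroma, endothelium and blood markers summed to less than 3 CPM in every mouse, and lymphocyte and myeloid markers to 75.39 to 139.9 and 64.45 to 104.1 CPM, with 2 of the 6 tested lower. Wild-type mouse 1 stood apart, with goblet markers at 125.4 CPM against 11620 and 11040 CPM in the other wild-type mice and 4669 to 5064 CPM in double mutant mice, and with Paneth markers at 7.956 CPM against 912.2 and 1504 CPM and 154 to 248.6 CPM. The part of these differences in the results on glutathione genes was not tested, and in bulk samples fewer cells of a type and less RNA per cell cannot be told apart. Each of the 4 calls on glutathione genes given next was also made without wild-type mouse 1.

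Of the 10 genes, 9 had enough counts to be tested and Slc7a11 did not. Gpx1 and Gsr were higher in double mutant villi and Gclc and Gclm were lower, so that transcripts of a peroxidase and of the reductase rose while those of both subunits of the enzyme that starts glutathione synthesis fell. The other 5 tested genes (Nfe2l2, Keap1, Gpx2, Gpx4 and Nqo1) did not pass, of which Keap1, Gpx4 and Nqo1 had an unadjusted p under 0.05 and lower means. Called genes made up 44.4% of the tested members, against 36.8% of all 13346 genes tested. Members called higher (2 of 9) and lower (2 of 9) stand beside shares of 19.7% and 17.0% of all genes. In 6 of the 9 the 3 mice of each group did not overlap, which was also so for 52.4% of all genes tested. The median log2 fold change was -0.27 over the 9 tested members and 0.02 over all genes.

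**Figure D1:**
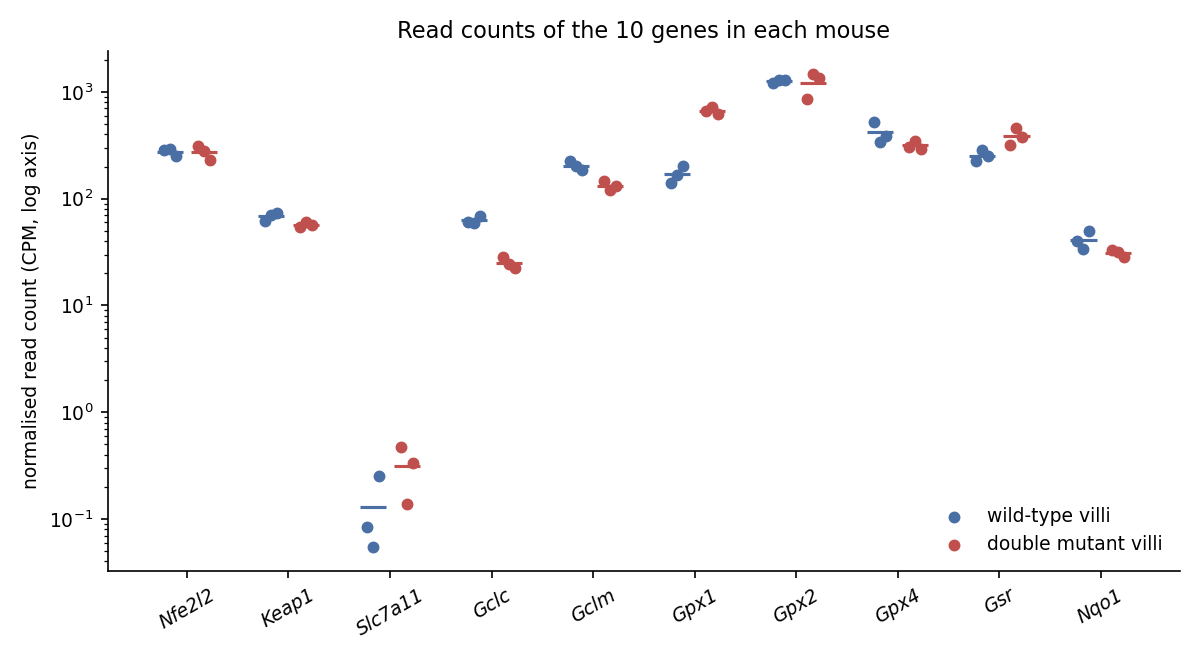
Level of each member in every mouse, in CPM on a log axis, with wild-type mice in blue, double mutant mice in red and group means as short lines. Gpx1 shows the widest gap of the tested members, with double mutant mice at 616.4 to 726.1 CPM and wild-type mice at 141.3 to 203.8 CPM, while Nfe2l2 and Gpx2 overlap.

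Sensing was examined first. Nfe2l2 (ENSMUSG00000015839, mm9 chromosome 2, 75513570 to 75542698, minus strand) encodes NRF2 and was at 284.7, 294.1 and 249.7 CPM in wild-type mice and at 313, 277.8 and 231.6 CPM in double mutant mice. The groups overlapped, with the highest and the lowest value both in double mutant mice. The log2 fold change was -0.01 (95% CI -0.32 to 0.30, edgeR adjusted p = 0.957), and its sign turned positive when libraries were scaled by their totals alone, which gave 0.19. Keap1 (ENSMUSG00000003308, chromosome 9, 21034174 to 21043776, minus strand), the inhibitor, was at 62.02, 70.83 and 73.64 CPM in wild-type and at 54.22, 60.29 and 56.63 CPM in double mutant mice. Every double mutant mouse was below every wild-type mouse, but the log2 fold change of -0.27 ± 0.11 (SE; 95% CI -0.53 to -0.01) did not pass (edgeR adjusted p = 0.0921), and with scaling by library totals alone it was -0.08. The ratio of Nfe2l2 to Keap1 per kilobase (kb) of exon overlapped, at 5.405, 4.889 and 3.993 in wild-type and 6.797, 5.426 and 4.816 in double mutant mice. Keap1 shares 510 bases of exon with the antisense RNA Gm16754, which had 194 counts over all mice, and since strand-specific counting was not stated, reads from the pair cannot be told apart.

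The antioxidant response element is the short DNA sequence to which NRF2 binds with a small MAF partner, and its core was searched as TGACNNNGC on both strands in RefSeq promoter windows of GRCm38.p6, which run from 250 bases before to 50 bases after each gene's start. Windows were given for 8 of the 10 members, all but Gclc and Gsr, and 2 held the core (25.0%), against 12.4% of all 32851 windows and 14% of the 27025 genes with a window. It was found in Nfe2l2 and Gclm, and these are shown because Nfe2l2 did not pass the test and Gclm fell. Capitals mark the core, and both lines are printed on the minus strand, at chr2:75704885-75704913 and chr3:122245413-122245441. The base of the core furthest from the gene's start lies 240 and 134 bases upstream of it.
Nfe2l2: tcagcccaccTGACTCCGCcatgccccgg
Gclm: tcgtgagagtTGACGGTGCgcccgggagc
A match describes these letters only, and the windows of the other 6 members, Gpx1 and Nqo1 included, hold no such match. DNA outside the windows was not searched, so an element further from the start would be missed.

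Transcripts for the first step of glutathione synthesis were lower. Gclc (ENSMUSG00000032350, chromosome 9, 77602342 to 77642292, plus strand) encodes the catalytic subunit of glutamate-cysteine ligase, the rate-limiting enzyme of glutathione synthesis. Its level was 60.73, 58.97 and 68.18 CPM in wild-type and 28.26, 24.44 and 22.26 CPM in double mutant mice. No double mutant mouse reached even the lowest wild-type value, and the spread within each group was small beside the gap. The log2 fold change was -1.33 ± 0.13 (SE; 95% CI -1.62 to -1.03, edgeR adjusted p = 0.000276), so Gclc fell 2.51-fold, and without wild-type mouse 1 it was -1.35. Gclm (ENSMUSG00000028124, chromosome 3, 121948475 to 121972902, plus strand), the modifier subunit that makes the enzyme more efficient, was at 224.2, 202.1 and 184 CPM in wild-type and 146.9, 120.2 and 131.4 CPM in double mutant mice. All 3 double mutant mice were again below all 3 wild-type mice. Gclm fell 1.53-fold, a log2 fold change of -0.62 ± 0.12 (SE; 95% CI -0.89 to -0.34, edgeR adjusted p = 0.00544), and without wild-type mouse 1 the value was -0.54. Gclm overlaps the antisense RNA Gm17494 over 296 exon bases, and that RNA had 147 counts in all.

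The ratio of the subunits was also read. Per kb of exon, Gclc stood at 0.4065, 0.4378 and 0.556 of Gclm in wild-type mice and at 0.2887, 0.3051 and 0.2543 in double mutant mice. These ratios, which do not depend on scaling between libraries, did not overlap and were not tested. The levels of 52.4% of all genes tested did not overlap between groups either.

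Slc7a11 (ENSMUSG00000027737, chromosome 3, 50168858 to 50247535, minus strand) encodes the cystine importer xCT, a well known NRF2 target. It had 2, 1 and 5 counts in wild-type and 10, 3 and 7 counts in double mutant mice, 28 in all, so both groups held libraries at or under 3 counts and no fold change is given. A difference was not tested, since the gene did not pass the count filter. A stretch of its exons matches alpha-tubulin genes (Tuba1a, Tuba1b and Tuba1c among them) at 95.4% to 96.2% identity, so even these few reads may be uncertain.

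The peroxidases differed in their response. All 3 are selenoproteins, in which the codon TGA is read as selenocysteine at the catalytic site, and a script found exactly 1 in-frame TGA in the coding sequence of each (GENCODE vM1) and 0 in the other 7 members. The codon windows are shown because this codon is what the 3 enzymes share while their transcripts differed in response, and capitals mark the TGA, at codon 47 of 201 in Gpx1, codon 40 of 190 in Gpx2 and codon 129 of 253 in the Gpx4-002 transcript.
Gpx1: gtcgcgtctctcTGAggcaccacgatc
Gpx2: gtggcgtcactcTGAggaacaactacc
Gpx4: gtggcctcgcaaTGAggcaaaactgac
Over their coding sequences Gpx1 and Gpx2 were identical at 71.4% of 569 aligned bases, with a longest identical run of 22 bases, while Gpx1 and Gpx4 were identical at 59.7% of 596 bases and Gpx2 and Gpx4 at 59.4% of 564 bases.

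Gpx1 (ENSMUSG00000063856, chromosome 9, 108241607 to 108242671, plus strand), the cytosolic and mitochondrial enzyme found in nearly all cells, was at 141.3, 166.8 and 203.8 CPM in wild-type mice. In double mutant mice it was at 656.8, 726.1 and 616.4 CPM. The lowest double mutant value was well above the highest wild-type value. Gpx1 rose 3.91-fold, a log2 fold change of 1.97 ± 0.15 (SE; 95% CI 1.61 to 2.32, edgeR adjusted p = 0.000114), and without wild-type mouse 1 it was 1.85. No further locus of mm9 matched its transcript at 95% identity over 150 bases or more.

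Gpx2 (ENSMUSG00000042808, chromosome 12, 77893322 to 77896541, minus strand) is the peroxidase of the gastrointestinal epithelium. It was at 1219, 1289 and 1302 CPM in wild-type mice and at 861.2, 1460 and 1352 CPM in double mutant mice. The wild-type mice were close together, while double mutant mouse 1 was the lowest of all and mouse 2 the highest, so the groups overlapped. The log2 fold change was -0.05 (95% CI -0.48 to 0.38, edgeR adjusted p = 0.85), and it turned positive without double mutant mouse 1 (0.16) and with scaling by library totals alone (0.14). The pseudogene Gpx2-ps1 on chromosome 7 (107413054 to 107414071) matches it at 96.9% over 1021 bases and had 64 counts over all mice, so its reads may be uncertain.

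Gpx4 (ENSMUSG00000075706, chromosome 10, 79509911 to 79519184, plus strand) reduces lipid peroxides in membranes and guards cells against ferroptosis. It was at 523.7, 338.9 and 389.3 CPM in wild-type and at 304.2, 348.9 and 295.2 CPM in double mutant mice. Wild-type mouse 1 was highest, and double mutant mouse 2 lay above wild-type mouse 2, so the groups overlapped. The log2 fold change of -0.40 ± 0.17 (SE; 95% CI -0.78 to -0.02) did not pass (edgeR adjusted p = 0.0927), but it did without wild-type mouse 2 (-0.53, adjusted p = 0.048). It was -0.20 both without wild-type mouse 1 and with scaling by library totals alone. A stretch of chromosome 10 with no annotated gene (45595096 to 45595872) matches it at 99.7% over 777 bases.

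**Figure D2:**
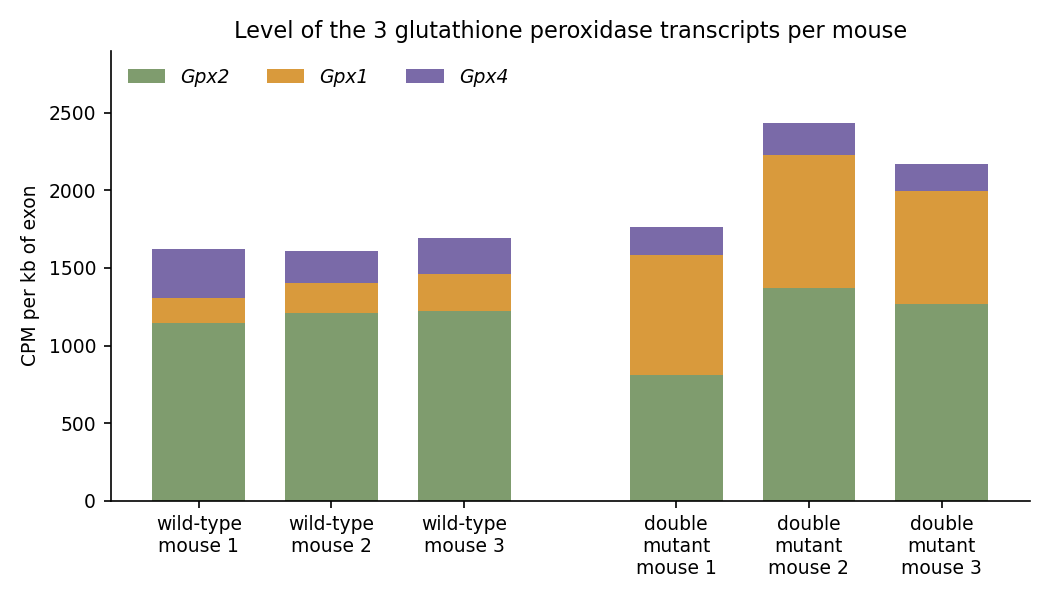
Stacked bars of the levels of Gpx2, Gpx1 and Gpx4 in each mouse, in CPM per kb of exon, with 1 bar per mouse and its height the sum of the 3. The Gpx1 segment is 166.8 to 240.7 CPM per kb high in wild-type and 727.7 to 857.2 in double mutant mice, and the summed height is 1607 to 1693 and 1764 to 2434 CPM per kb.

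Per kb of exon, the scale on which levels of different genes were compared, Gpx2 was the most abundant of the 10 members in wild-type villi at 1190 ± 41.8 CPM per kb. Gpx4 followed at 249.1 ± 57.0 and Gpx1 at 201.5 ± 37.1 CPM per kb, and their ranges overlapped. Exon length joins all annotated transcripts, 1675 bases for Gpx4 and 847 for Gpx1, so the order and shares of these genes depend on it. In CPM without length, wild-type Gpx4 (338.9 to 523.7) lay above wild-type Gpx1 (141.3 to 203.8). In double mutant villi Gpx2 was at 1148 ± 299.2 and Gpx1 at 786.8 ± 65.5 CPM per kb, with overlapping ranges, and Gpx4 was at 188.7 ± 17.2 CPM per kb. The ratio of Gpx1 to Gpx4 was 0.5336, 0.9737 and 1.036 in wild-type mice and 4.27, 4.116 and 4.129 in double mutant mice. The ratio of Gpx1 to Gpx2 was 0.146, 0.1631 and 0.1973 in wild-type and 0.9608, 0.6265 and 0.5742 in double mutant mice. Neither ratio overlapped between groups, and neither was tested. On this scale Gpx1 was above Gpx4 in every double mutant mouse but in only 1 wild-type mouse.

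As a share of the 3 peroxidases together on this scale, Gpx1 made up 12.2% ± 1.97 in wild-type and 37.6% ± 5.60 in double mutant mice. Gpx2 made up 72.5% ± 2.40 and 53.4% ± 6.75, and Gpx4 15.2% ± 3.58 and 8.99% ± 1.15 (SD, n = 3). Their summed level was 1622, 1607 and 1693 CPM per kb in wild-type and 1764, 2434 and 2171 CPM per kb in double mutant mice. Every double mutant mouse was above every wild-type mouse, and the sum was not tested.

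Gsr (ENSMUSG00000031584, chromosome 8, 34762995 to 34808635, plus strand) encodes glutathione reductase, which turns oxidised glutathione back to the reduced form. It was at 225.8, 283.4 and 248.6 CPM in wild-type and at 319.5, 455.2 and 375 CPM in double mutant mice. All double mutant mice were above all wild-type mice, with mouse 2 the highest. Gsr rose 1.52-fold, a log2 fold change of 0.60 ± 0.15 (SE; 95% CI 0.25 to 0.95, edgeR adjusted p = 0.0158), and 0.53 without wild-type mouse 1. The call was lost without wild-type mouse 3 (0.59, edgeR adjusted p = 0.0518) and without double mutant mouse 2 (0.46, adjusted p = 0.0555).

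Nqo1 (ENSMUSG00000003849, chromosome 8, 109912125 to 109927106, minus strand) encodes a quinone reductase and is among the best known NRF2 targets. It was at 40.11, 33.73 and 49.43 CPM in wild-type and at 33.28, 31.58 and 28.53 CPM in double mutant mice. All double mutant mice were below all wild-type mice, although double mutant mouse 1 lay just under wild-type mouse 2. The log2 fold change of -0.40 ± 0.16 (SE; 95% CI -0.76 to -0.05) did not pass (edgeR adjusted p = 0.0743), and it did without wild-type mouse 2 (-0.53, adjusted p = 0.0366). It was -0.25 without wild-type mouse 3 and -0.21 with scaling by library totals alone.

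**Figure D3:**
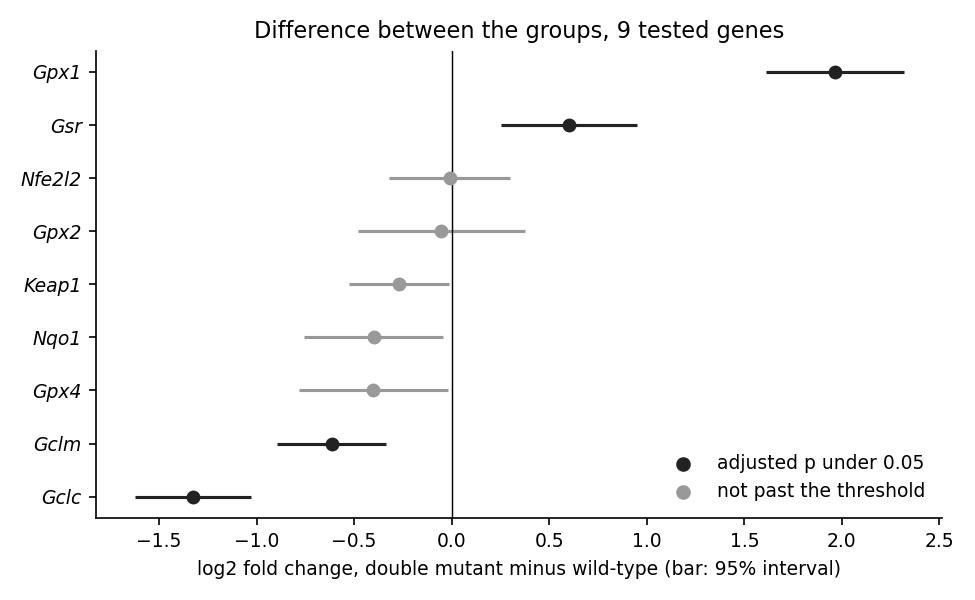
Log2 fold change of the 9 tested members, double mutant over wild-type, on the horizontal axis, as points with 95% confidence intervals, black where the adjusted p was under 0.05 and grey where it was not. Gpx1 (1.97) and Gsr (0.60) lie to the right of 0 and Gclc (-1.33) and Gclm (-0.62) to its left, while among the grey points the intervals of Nfe2l2 and Gpx2 include 0 and those of Keap1, Gpx4 and Nqo1 end just below it.

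The remaining members ranked below the peroxidases per kb of exon. In wild-type mice Gsr stood at 91.7 CPM per kb, Nfe2l2 at 72.8, Gclm at 39.6, Nqo1 at 26.5, Gclc at 18.3 and Keap1 at 15.4 CPM per kb, with no overlap between neighbours. In double mutant mice the order was the same except that Gclc, at 7.30 CPM per kb, fell below Keap1, at 12.8 CPM per kb. Among 13092 genes, Gclc moved from the 76.8th to the 58.9th percentile, Gpx1 from the 97.7th to the 99.5th and Gsr from the 94.6th to the 96.8th, while Gpx2 stayed at the 99.7th.

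The wider pathway was read from gene lists set by role, in which the members are included, and the counts of each list stand beside the shares of all genes called, 19.7% higher and 17.0% lower. In glutathione synthesis and cysteine supply 12 of 14 genes were tested, with 4 higher and 4 lower and a median log2 fold change of 0.19, against 0.02 over all genes. Beside Gclc and Gclm, Slc3a2, the partner chain of the cystine importer, fell from 453 ± 29.8 to 263.2 ± 28.8 CPM (log2 fold change -0.78, edgeR adjusted p = 0.00166), and Mpst fell by 0.65 on the log2 scale. The amino acid transporters Slc38a2 (0.82) and Slc1a5 (1.40) rose, the latter call lost without double mutant mouse 2 (edgeR adjusted p = 0.0601). Glutathione synthetase, Gss, the enzyme of the step after Gclc and chosen after its values were seen, did not pass at 159.7 ± 7.24 and 136.3 ± 12.4 CPM (-0.23, adjusted p = 0.136). In breakdown and recycling 9 of 14 genes were tested, 1 higher and 5 lower, with a median of -0.41. The brush border peptidases Anpep (-0.94) and Dpep1 (-1.09) and the dipeptidase Cndp2 (-1.02) fell. The call on Ggct (1.26) was kept in 1 of 6 fits that left out a mouse, which gave 0.934 to 1.855. Anpep is also an enterocyte marker. Calls lower in this list numbered 3 with scaling by library totals alone, and 3 without wild-type mouse 2 or without any of the 3 double mutant mice.

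The list of glutathione peroxidases and reductases also holds Glo1, Hagh and Esd, which are neither. Of its 16 tested genes 6 were higher, Glo1 among them, and 3 lower, Hagh and Esd among them, with a median of 0.11. In this list 3 were higher without wild-type mouse 3 or without double mutant mouse 2. Prdx6, a peroxiredoxin that uses glutathione, rose from 166.6 ± 8.45 to 506.8 ± 69.2 CPM (log2 fold change 1.60, edgeR adjusted p = 0.000117), and the glyoxalase Glo1 rose by 1.03 on the log2 scale. Gpx3, the secreted peroxidase, fell from 10.1 ± 1.09 to 0.845 ± 0.173 CPM (-3.57, adjusted p = 7.31e-05), and Hagh, the enzyme after Glo1, fell by 0.92. Calls on Glrx3 (0.54) and Esd (-0.35) were each kept in 1 of 6 fits that left out a mouse. Of 24 tested glutathione S-transferases, which couple glutathione to toxic compounds, 4 were higher and 5 lower, with a median of 0.08, with 7 higher without wild-type mouse 1, 2 higher without wild-type mouse 2 or 3 or double mutant mouse 2 or 3, and 3 lower without either of the latter. Gstm3 (-1.59) and Gstp2 (-0.72) fell, and Gstm5 (1.18) and Mgst2 (0.71) rose. Gstm1 (-2.01) lost its call in the fits without each double mutant mouse and Mgst1 (0.93) in 5 of 6 fits. On leaving out a mouse Gstm1 ran from -2.30 to -1.34 and Mgst1 from 0.72 to 1.35. The Gstm and Gstp genes are close copies, so reads could be split among them.

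**Figure D4:**
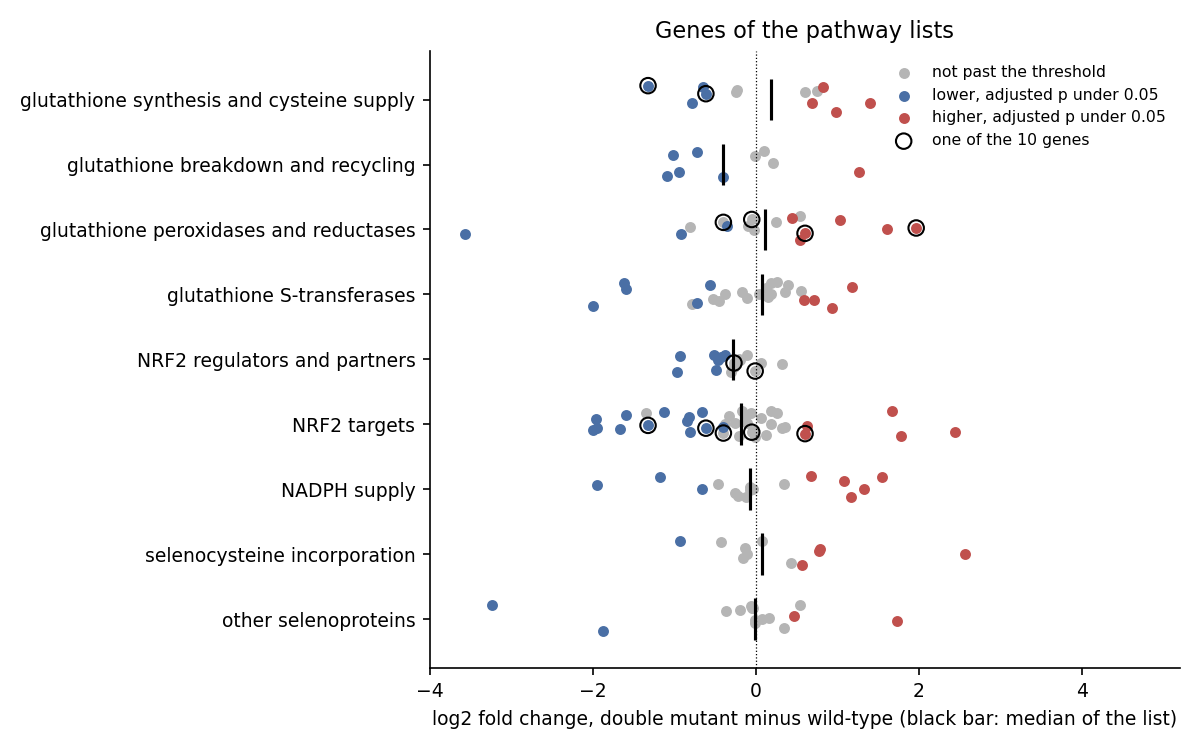
Log2 fold changes of the tested genes in each pathway list, double mutant over wild-type, on the horizontal axis, with 1 point per gene, red for genes called higher, blue for lower, grey for not called, a ring around members and a black bar at each list's median. The medians run from -0.41 for breakdown and recycling to 0.19 for synthesis and cysteine supply, beside 0.02 over all genes tested.

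NRF2 regulators and partners had 16 tested genes, 0 higher and 7 lower, with a median of -0.29, where 19.7% of all genes were higher and 17.0% lower. The repressor Bach1 fell from 137.5 ± 20.1 to 70.3 ± 12.4 CPM (-0.97, edgeR adjusted p = 0.00264), and the small MAF genes Maff (-0.94) and Mafk (-0.52) also fell. This count is sensitive to scaling, since 2 were lower, Mafk no longer among them, and 1 was higher with library totals alone, and 4 were lower without wild-type mouse 3 or without double mutant mouse 2. Among 38 tested NRF2 targets, 5 were higher and 13 lower, with a median of -0.19, and 1 was higher without double mutant mouse 2. The same shares of all genes, 19.7% and 17.0%, stand beside these counts. Me1, a malic enzyme that makes NADPH, fell from 228.8 ± 20.8 to 59.4 ± 13.3 CPM (-1.95, adjusted p = 0.000176), and ferritin heavy chain, Fth1, rose from 4269 ± 698.4 to 6614 ± 564.4 CPM (0.63, adjusted p = 0.0123). The call on Akr1b8 (2.44) was lost with the replicate block and with no low-count filter. It was kept in 3 of 6 fits that left out a mouse, which gave 2.08 to 3.30. Ces1g (-1.97) kept its call in 2 of 6 such fits and was at -0.85 without wild-type mouse 1. Some other classical targets, chosen after their values were seen, went in both directions, and only the counts above describe the list. Srxn1, sulfiredoxin, fell (-0.82, adjusted p = 0.000909) and Osgin1 fell (-1.67, adjusted p = 0.00015). Hmox1, heme oxygenase, rose from 1.14 ± 0.489 to 3.60 ± 1.28 CPM (1.67, adjusted p = 0.0189), a call lost without double mutant mouse 2 (0.0645) or 3 (0.0726), while Txnrd1 did not pass (-0.06, adjusted p = 0.715). The NRF2 target list had the core motif in 11 of 35 genes with a window (31.4%), against 14% of all genes with a window.

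Gsr draws on NADPH. The list of NADPH supply and linked enzymes, not all of which make NADPH, had 16 tested genes, 5 higher and 3 lower, with a median of -0.07. G6pdx, the first enzyme of the pentose phosphate pathway, fell from 100.9 ± 17.2 to 63.5 ± 2.17 CPM (-0.67, edgeR adjusted p = 0.00593), and Me2 fell by 1.18 on the log2 scale. Nnt, the mitochondrial transhydrogenase, rose (1.17), as did the folate enzymes Mthfd1 (1.54) and Mthfd2 (1.32), the last in 3 of 6 fits that left out a mouse. Selenocysteine incorporation, on which the peroxidases depend, had 11 tested genes, 4 higher and 1 lower (2 without wild-type mouse 3), with a median of 0.07. Eefsec (0.77) and Trnau1ap (0.78) rose and Secisbp2l fell (-0.94), while the call on Lrp8 (2.56) was kept in 2 of 6 such fits, which gave 1.936 to 3.255. Among 15 tested selenoproteins other than the peroxidases, 2 were higher and 2 lower, with a median of -0.01. Selenop, the selenium carrier, fell from 4301 ± 287.0 to 1171 ± 273.9 CPM (-1.88, adjusted p = 0.00025), and Dio1 fell from 44.7 ± 3.25 to 4.74 ± 1.65 CPM (-3.24, adjusted p = 0.000119). Selenoh (1.73) and Selenof (0.47) rose.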

How the data were processed

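Villi were released from the duodenum with EDTA, and polyA-enriched libraries were sequenced as paired reads. The authors used HISAT2 for alignment to mm9 and featureCounts for counting, and the deposited values are raw counts for each mouse, neither normalized nor pooled. Strand and multiple-mapping settings were not given in the sources used here. Gene symbols and coordinates were taken from GENCODE vM1, which gave 20032 of 20073 Ensembl identifiers. A further 336 rows of the table are numbered transcripts outside the annotation.

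Groups came from the sample labels, and each library is a different mouse, so p-values measure the spread between mice. Counts were tested with R 4.3.3 and edgeR 4.0.16: filterByExpr by group, TMM scaling, glmQLFit (robust) and glmQLFTest over all 13346 genes passing the filter, with Benjamini-Hochberg adjustment. A gene was called at an adjusted p under 0.05. The SE was taken as the size of the log2 fold change over the root of the quasi-likelihood F. DESeq2 1.42.0 and limma 3.58.1 were alternatives, together with other scalings, filters, sex as a factor, a replicate block and leaving out each mouse. In each list up to 3 genes per direction were named, those with the largest fold change among called genes whose group of higher level had 50 or more counts per mouse. A gene that this rule named is not reported here. The genes and lists were chosen with earlier results of these data known.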

Additional observations from a re-analysis of the deposited data

How the results depend on the processing

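Over 14 alternatives the 9 tested members gave 126 log2 fold changes, of which 116 kept direction and call. Gsr lost its call in 2 and Gpx4 and Nqo1 gained theirs in 1 each, all on leaving out a mouse. Nfe2l2, never called, turned positive with library totals alone (0.19), without wild-type mouse 1 (0.01), without wild-type mouse 2 (0.03) and without double mutant mouse 3 (0.10), and Gpx2 with library totals alone (0.14) and without double mutant mouse 1 (0.16). Txnrd1, likewise not called, ran from -0.16 to 0.025 on leaving out a mouse and turned positive with library totals alone (0.13) and without double mutant mouse 3 (0.025). On leaving out a mouse Nfe2l2 ran from -0.11 to 0.10 and Gpx2 from -0.20 to 0.16. Over all 14 alternatives Gclc ran from -1.41 to -1.13, Gclm from -0.69 to -0.42, Gpx1 from 1.85 to 2.15 and Gsr from 0.46 to 0.79, and of those not called Keap1 ran from -0.34 to -0.08, Gpx4 from -0.53 to -0.20 and Nqo1 from -0.53 to -0.21.

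Library totals alone moved the median of all genes from 0.02 to 0.21 and the calls from 2632 higher and 2273 lower to 3732 and 1425. At a log2 fold change of 2 as well, 0 members were higher and 0 lower, against 406 and 302 of all 13346 genes, but Gpx1 was close to this threshold and was past it with library totals alone (2.15), without wild-type mouse 3 (2.11) and without double mutant mouse 3 (2.02). Leaving out each mouse gave 1 to 2 members higher and 2 to 4 lower, with 1812 to 2783 genes higher and 1630 to 2361 lower over all genes. Replicate numbers follow the sample labels, and a sample sheet of the study numbers the same libraries in another order. The label numbers were not taken to pair the mice. Same-numbered mice deviated with correlations of 0.0224, -0.109 and 0.0123, and different-numbered mice with correlations of -0.102 to 0.0935. With so few mice these values cannot show whether mice were matched. With the replicate block 2 members were higher and 2 lower, as without it, and over all genes 2084 were higher and 1750 lower. In the lists the replicate block gave 3 genes lower in breakdown and recycling, 2 higher among glutathione S-transferases and 4 lower among NRF2 regulators. Library totals gave 3 lower in breakdown and recycling and, among NRF2 regulators, 1 higher and 2 lower. NRF2 regulators had 1 higher with DESeq2 and with no filter. Selenocysteine incorporation had 2 lower with DESeq2, with RLE factors and with sex as a factor, and glutathione S-transferases had 2 higher with RLE factors. On leaving out a mouse, breakdown and recycling had 0 to 1 higher and 3 to 5 lower, peroxidases and reductases 3 to 6 higher and 2 to 4 lower, glutathione S-transferases 2 to 7 higher and 3 to 6 lower, NRF2 regulators 4 to 7 lower, NRF2 targets 1 to 6 higher and 9 to 15 lower, and selenocysteine incorporation 3 to 5 higher and 1 to 2 lower. The cause of these shifts was not tested. Slc7a11 alone among the members was left out of the test for low counts.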
